A study of Zea mays with 8 samples.

Results

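The genes described here are the maize methyl-CpG-binding domain genes (mbd) and DNA methyltransferase genes (dmt) on an Affymetrix maize GeneChip. They were taken as every probe set whose gene carries, in the platform annotation or among its RefSeq synonyms, a name made of mbd or dmt and a 3-digit number. This gave 10 of 1108 named genes, read by 13 of 17734 probe sets. Of these, 7 are mbd genes with 1 probe set each: mbd101, mbd105, mbd106, mbd108, mbd109, mbd111 and mbd115. The other 3 are dmt101 (LOC542082, also named met1), dmt105 (met5, also named Zmet5, with 4 probe sets) and dmt106 (LOC541971). mbd109 (gene ID 542501) lies on the short arm of chromosome 5, and the other 9 genes lie on chromosomes 1, 2, 3, 7 and 8.

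Transcript levels were measured in 8 pools of 12 maize seedlings each, all in the inbred B73 background, with every above-ground part harvested on day 11. The 4 DpDf (duplicate-deficient) pools came from plants of the T5-6b translocation that have 1 rearranged chromosome 6 to which the greater part of chromosome 5's short arm is joined and which lacks the tip of its own satellite, so that the joined stretch is present in 3 copies. The 4 wild-type pools were made from siblings in the same families with 2 copies, and the DpDf and wild-type pools of the same replicate number were grown from the same self-pollinated DpDf plant's seed. Replicates 1 and 3 came from seed source 49647-3self and replicates 2 and 4 from 49646-1self. A pool averages 12 plants and all shoot tissues, so a change in the share of a cell type and a change of RNA per cell cannot be told apart.

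DNA methyltransferases place methyl groups on cytosines. In plants, the MET1 class copies methylation of CG sites after replication, and chromomethylases, to which Zmet5 belongs, methylate cytosines outside CG sites in regions of histone H3 lysine 9 methylation. Proteins with a methyl-CpG-binding domain are a family of chromatin proteins, and in Arabidopsis only some of its members bind methylated DNA.

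Values are linear intensities per probe set, and the signal of one probe set is not comparable with that of another. Array medians ran from 135.6 to 142.3, and no array repeated another. Among 12335 probe sets with a mean above the filter value of 27.0, 12 of the 13 mbd and dmt probe sets were kept. Green shoot markers were above the filter for 9 of 10 probe sets, the shoot apex gene kn1 was above it as well, and endosperm genes were above it for 3 of 15 probe sets, those 3 being bt2, zpu1 and 1 of the probe sets of the zein gene zp27. The 3' minus 5' log2 difference of 5 control transcripts, a measure of RNA integrity, was 1.20 ± 0.23 in DpDf pools and 0.91 ± 0.13 in wild-type pools (SD, n = 4 each), and it was highest in DpDf replicate 1, at 1.52.

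mbd109 rose in DpDf seedlings, and none of the other mbd and dmt probe sets tested passed the threshold in either direction. mbd109 had linear intensities of 1367, 1422, 1533 and 1328 in the DpDf pools of replicates 1 to 4, against 922.4, 837.4, 868.5 and 884.3 in wild-type replicates 1 to 4. The lowest DpDf pool was above the highest wild-type pool, so the genotypes did not overlap; 6.52% of all probe sets were higher in DpDf without overlap. The means were 1412.5 ± 89.1 in DpDf and 878.2 ± 35.4 in wild type (SD, n = 4 each). The log2 difference, DpDf minus wild type, was 0.68 (SE 0.063, limma adjusted p = 0.000686), a fold of 1.61 with a 95% interval from 1.46 to 1.77. An exact permutation test, two-sided, with 70 possible assignments gave p = 0.0286, the smallest this design allows. With arrays kept in their pairs, the exact p was 0.125, the smallest that 16 sign flips allow.

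**Figure D1:**
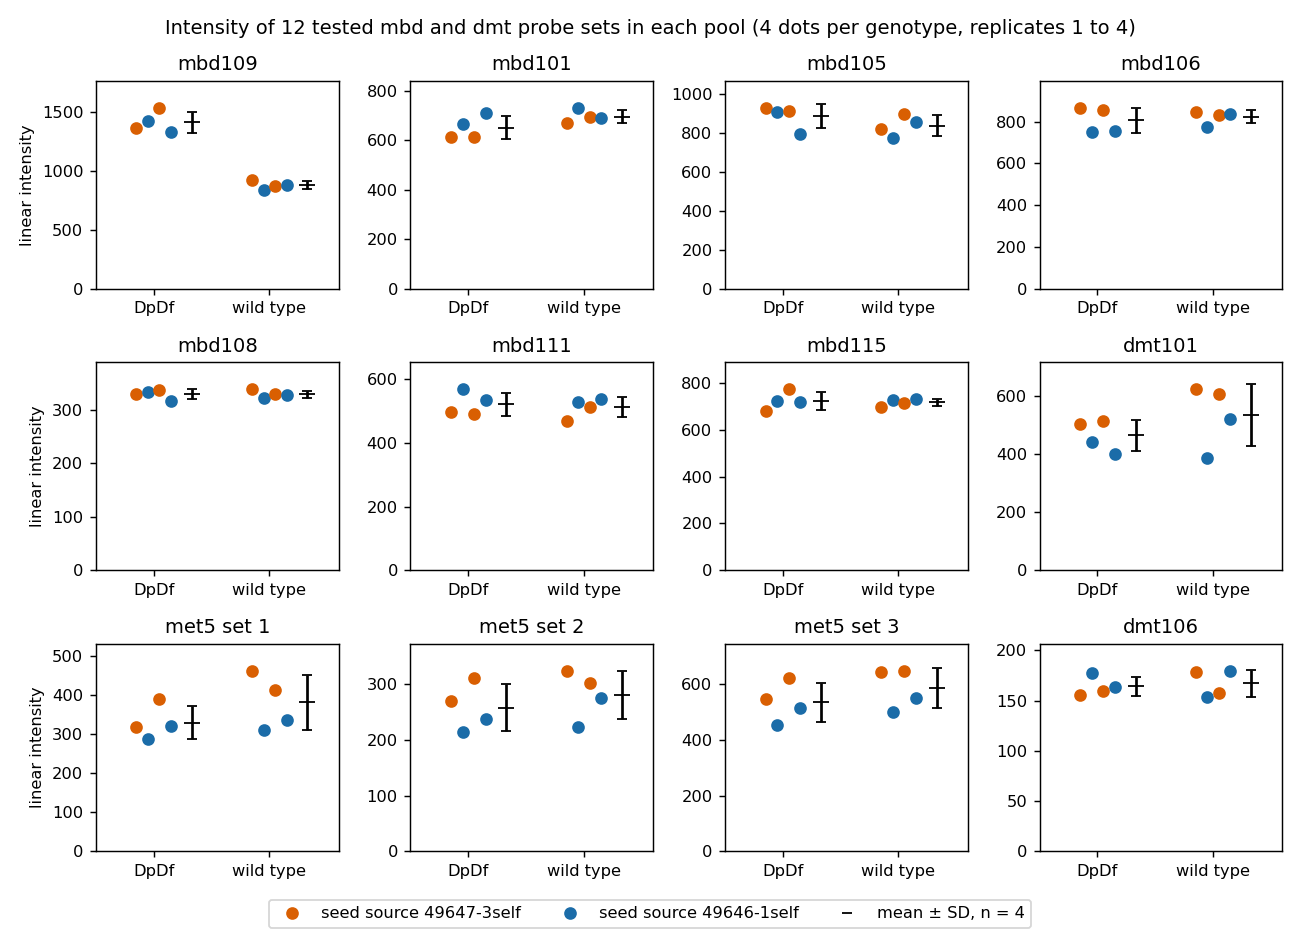
Linear intensity (vertical axes, each starting at 0) of the 12 tested probe sets in the 4 DpDf pools (left) and the 4 wild-type pools (right) of each panel; dots are pools, coloured by seed source, and black bars are mean ± SD. The DpDf pools of mbd109 lie between 1328 and 1533 and its wild-type pools between 837.4 and 922.4, while the 2 genotypes overlap in the other 11 panels.

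Within pairs, the log2 difference of mbd109 was 0.57, 0.76, 0.82 and 0.59 in replicates 1 to 4. It was therefore higher in DpDf in 4 of 4 pairs. In seed source 49647-3self the DpDf and wild-type means were 1450.0 and 895.5 (log2 difference 0.69, n = 2 each), and in 49646-1self they were 1375.0 and 860.9 (log2 difference 0.68, n = 2 each). The interaction of genotype with seed source was 0.018 (limma adjusted p = 1.00).

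The copy ratio of 3 to 2 is 0.58 on the log2 scale. The 95% interval of mbd109, 0.54 to 0.83, held that value and not 0, and with replicate number as a block the interval was 0.54 to 0.83 as well. An interval that holds the copy ratio does not show that the rise equals it.

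mbd109 was the only mbd or dmt probe set called among 12 tested, while 4.87% of all probe sets tested were called, 4.03% higher and 0.843% lower. Over the whole array 601 probe sets were called, 497 of them higher and 104 lower. With the replicate block the count over all probe sets was 1253 (10.2%), 840 higher (6.81%) and 413 lower (3.35%), and mbd109 (adjusted p = 0.000865 in limma) was again the only one of the 12. The median log2 difference was -0.030 over the 11 probe sets elsewhere in the genome and -0.023 over all 12335. mbd109 minus the median of the 11 was 0.70, 0.78, 0.80 and 0.67 in replicates 1 to 4, a description without a test.

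**Figure D2:**
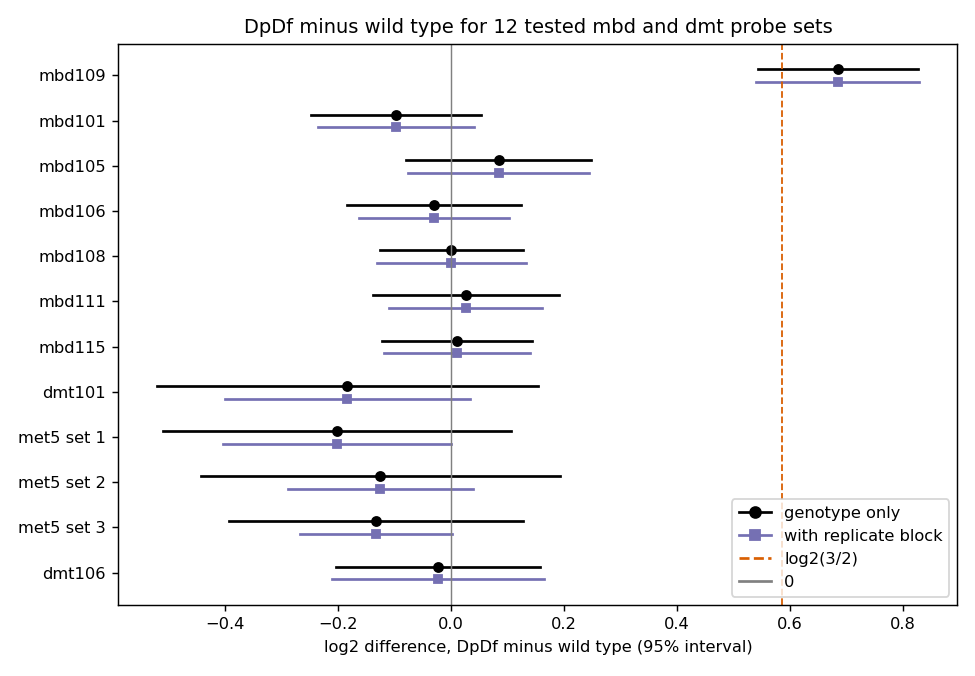
Log2 difference, DpDf minus wild type (horizontal axis), with its 95% interval for the 12 tested probe sets, from the fit with genotype only (black dots) and with the replicate block (purple squares); lines mark 0 and log2(3/2). In the fit with genotype only, the interval of mbd109 holds log2(3/2), and the other 11 hold 0 and lie below log2(3/2); met5 sets 1, 2 and 3 are its 3 tested probe sets.

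The difference between mbd109 and the other mbd and dmt genes was tested directly, on log2 values taken relative to mbd109 on the same array. All 11 other probe sets had a DpDf minus wild-type difference below that of mbd109, by amounts from -0.89 for met5 set 1 to -0.60 for mbd105, with limma adjusted p from 2.15e-05 to 0.000106. This test called 94.3% of all probe sets lower than mbd109, so the 11 shared this with most of the array. For the 9 genes outside the segment, every tested interval of the fit with genotype only held 0 and excluded log2(3/2): the highest upper bound was 0.25 (mbd105) and the lowest lower bound -0.52 (dmt101). With the replicate block, 10 of the 11 intervals held 0, and that of met5 set 1 lay just below it, from -0.40 to -0.00091.

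Of the 6 mbd genes outside the segment, 4 had a higher and 2 a lower mean in DpDf, and 0 passed the limma threshold (0 also had an unadjusted p under 0.05, against 17% of all probe sets, and 0 passed with the replicate block). mbd101 on chromosome 8 had intensities from 614.0 to 709.4 in DpDf pools and from 671.0 to 730.2 in wild-type pools, a log2 difference of -0.097 (SE 0.067, limma adjusted p = 0.512), and was lower in 3 of 4 pairs. mbd105 on chromosome 3 ranged from 797.9 to 929.1 in DpDf and from 773.0 to 898.1 in wild type, a difference of 0.084 (SE 0.073, limma adjusted p = 0.618), and was higher in 3 of 4 pairs. These were the 2 mbd genes elsewhere with the differences farthest from 0, and both sets of pools overlapped.

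The remaining mbd genes differed by less. mbd108 on chromosome 7 had a mean intensity of 330.1 ± 9.28 in DpDf and 330.0 ± 6.49 in wild type (SD, n = 4 each), a log2 difference of 0.00021 with an interval from -0.13 to 0.13. mbd106 on chromosome 1 ranged from 751.2 to 864.2 in DpDf and from 776.3 to 845.9 in wild type, and mbd115 on the same chromosome averaged 723.2 ± 38.0 in DpDf and 717.6 ± 15.2 in wild type (SD, n = 4 each). Their log2 differences were -0.030 and 0.0099. mbd111 on chromosome 2 averaged 522.6 ± 36.2 in DpDf and 513.1 ± 30.3 in wild type (SD, n = 4 each), a difference of 0.026. All 4 genes had DpDf and wild-type pools that overlapped, and limma adjusted p from 0.867 to 0.999.

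The methyltransferase probe sets had lower means in DpDf in 5 of 5 tested cases, and 0 passed the limma threshold (0 had an unadjusted p under 0.05, and 1 had one with the replicate block, against 26% of all probe sets in that fit). Over all probe sets 57.2% had a lower mean in DpDf. The 5 probe sets stand for 3 genes, since met5 is read 3 times by probe sets that may share transcripts. dmt101, of the MET1 class, had intensities of 503.2, 442.1, 516.0 and 401.1 in the DpDf pools of replicates 1 to 4, against 623.8, 388.6, 608.1 and 520.7 in wild-type replicates 1 to 4. Its pools overlapped, and DpDf was lower in 3 of 4 pairs. The log2 difference was -0.18 (SE 0.15), with a limma adjusted p of 0.591 (0.263 with the replicate block). With 1 pool left out it ran from -0.33 (without wild-type replicate 2) to -0.10 (without wild-type replicate 1), and leaving out DpDf replicate 4 gave -0.12, wild-type replicate 3 -0.11.

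met5, the chromomethylase gene on chromosome 2, had lower means in DpDf in each of its 3 tested probe sets, here called set 1, set 2 and set 3. Set 1 had intensities of 319.0, 288.0, 389.3 and 320.9 in the DpDf pools of replicates 1 to 4, against 462.2, 311.6, 414.3 and 337.1 in wild-type replicates 1 to 4. Set 3 had 545.9, 452.2, 621.4 and 515.5 in DpDf, against 643.8, 501.3, 647.3 and 548.0 in wild type. Both probe sets were lower in DpDf in 4 of 4 pairs although their pools overlapped, and 18.1% of all probe sets were lower in every pair. Their log2 differences were -0.20 and -0.13, with SE of 0.14 and 0.12 and limma adjusted p of 0.504 and 0.617. With the replicate block the adjusted p was 0.191 and 0.196 in limma. Set 2, an x_at probe set, some of whose probes can match other transcripts, was lower in 3 of 4 pairs, by -0.13 on average (SE 0.14, limma adjusted p = 0.711). These values also moved with single pools. With 1 pool left out, set 1 ran from -0.29 (without wild-type replicate 2) to -0.10 (without wild-type replicate 1). Set 2 ran from -0.23 (without wild-type replicate 2) to -0.040 (without DpDf replicate 2), and set 3 from -0.21 (without DpDf replicate 3) to -0.057 (without DpDf replicate 2).

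The difference of met5 set 1 was uneven across pairs, at -0.53 in replicate 1 and -0.11, -0.090 and -0.071 in replicates 2 to 4. Replicate 1 is also the pair with the widest gap in the 3' minus 5' measure, 1.52 in DpDf against 0.81 in wild type. With that measure as a covariate met5 sets 1, 2 and 3 differed by 0.019, 0.030 and 0.0096 (limma adjusted p = 0.991, 0.991 and 0.994), and dmt101 by -0.057. The met5 values turned in sign but lay near 0. Because the measure itself differed between the genotypes, this fit cannot tell its part from that of genotype. Markers of tissue makeup also differed in mean beside the lower methyltransferase means. All 9 tested green shoot probe sets were higher in DpDf, by 0.017 to 0.47, and kn1 was lower, by -0.29. Over all probe sets, 5284 of 12335 had a higher mean in DpDf. Of these 10 marker probe sets, 0 passed the limma threshold (adjusted p = 0.362 for kn1), against 4.87% of all probe sets. The value of 0.47 is that of psad1, which lies in the duplicated segment, so it cannot be read as tissue makeup alone. The next highest was pep1, at 0.19, and several of the 9 probe sets read the same gene, ppdk1. The part of RNA integrity and of tissue makeup in the methyltransferase values was not tested.

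**Figure D3:**
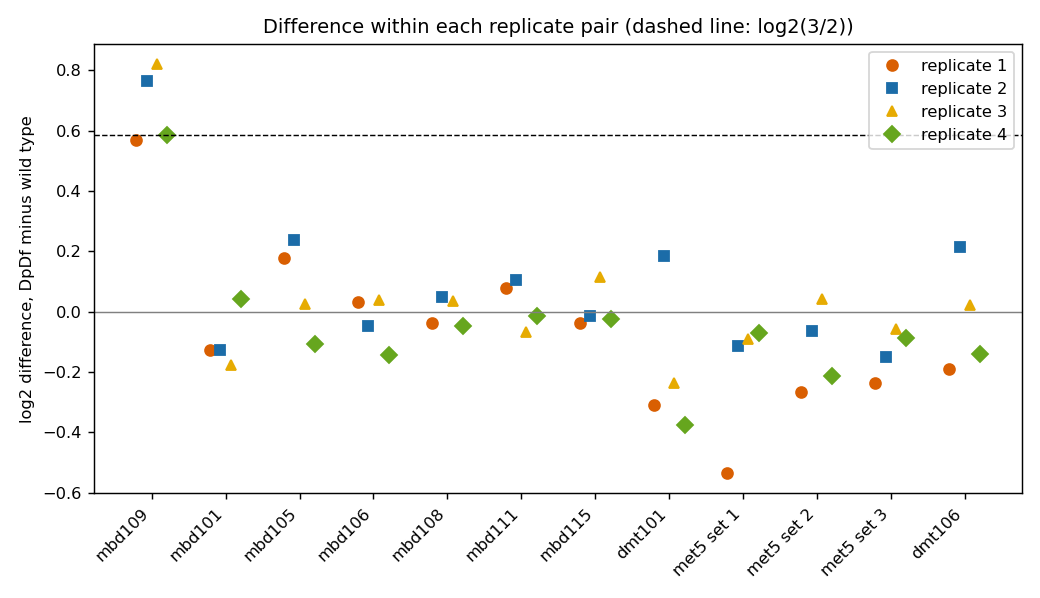
Log2 difference between the DpDf and the wild-type pool of each replicate (vertical axis) for the 12 tested probe sets; each symbol is 1 replicate pair. The 4 pairs of mbd109 lie between 0.57 and 0.82, and the lowest of the other values is -0.53, for met5 in replicate 1.

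dmt106 on chromosome 8 averaged 164.3 ± 9.50 in DpDf and 167.2 ± 13.7 in wild type (SD, n = 4 each). Its difference was -0.024 (SE 0.080, limma adjusted p = 0.921), with 2 pairs higher and 2 lower. The remaining met5 probe set was below the filter value and did not enter the fit. Its intensities were 7.51, 5.93, 6.98 and 6.40 in the DpDf pools of replicates 1 to 4, against 5.56, 5.31, 5.28 and 5.56 in wild-type replicates 1 to 4. The pools did not overlap, but the share of probe sets below the filter without overlap was not counted. The direction was opposite to that of the other met5 probe sets, and without the filter the difference of 0.30 had a limma adjusted p of 0.0626. Values this low have little signal over background to carry a level of the gene.

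For 11 of the 12 probe sets, all but mbd109, the difference between seed sources was larger in size than that between genotypes, as it was for 49% of all probe sets. The values farthest from 0 were those of dmt101, met5 and mbd111, and none passed the threshold. This comparison was added after the values were seen, with seed source and genotype in the same limma fit. Over both genotypes, dmt101 ran from 503.2 to 623.8 in the 4 pools of 49647-3self and from 388.6 to 520.7 in the 4 pools of 49646-1self, a log2 difference of 0.36 (SE 0.096, adjusted p = 0.127). The 3 met5 probe sets differed by 0.32, 0.35 and 0.29 in the same direction (limma adjusted p = 0.135, 0.118 and 0.118). For mbd111 the direction was opposite, at -0.14 (SE 0.057, limma adjusted p = 0.242). The pools of mbd111 lay between 470.5 and 514.0 in 49647-3self and between 528.2 and 568.4 in 49646-1self without overlap. How common such a lack of overlap between seed sources was over all probe sets was not counted. None of the 12 probe sets passed the adjusted threshold, which 4 of 12335 probe sets (0.0324%) did. An unadjusted limma p under 0.05 was found for 5 of the 12, against 18.3% of all probe sets. The 5 were dmt101, mbd111 and the 3 met5 probe sets. Since these 3 read the same gene, met5 enters this and the other counts of the 12 more than once. The fit with seed source and genotype takes the 8 arrays as independent, although each seed source holds only 2 replicate numbers with paired pools, so its p-values are too small. With replicate number as a random block, also added after the values were seen, 4 of the 12 had an unadjusted limma p under 0.05 (dmt101 and met5), against 13.8% of all probe sets, and 0 passed (adjusted p = 0.254 for dmt101, 0.228 to 0.265 for met5 and 0.392 for mbd111). Seed source varies only between replicate numbers, 2 per seed source, so these p-values may still be too small. mbd109 differed between seed sources by 0.066 (limma adjusted p = 0.596). The interaction of genotype with seed source was called for 0 of 12 probe sets, and for 0% of all probe sets, with 0 of the 12 and 247 of 12335 at an unadjusted limma p under 0.05.

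**Figure D4:**
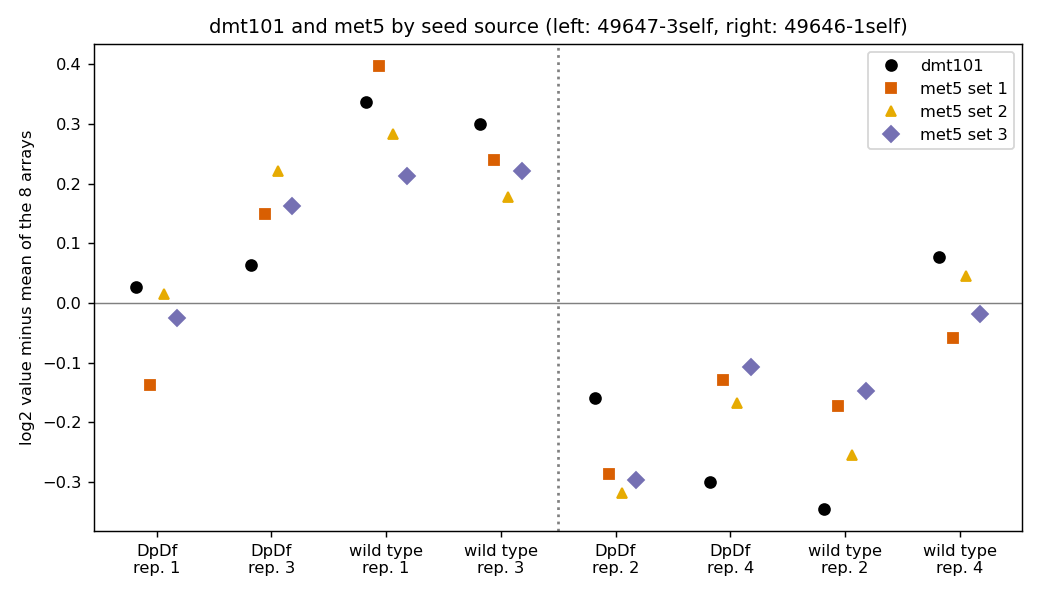
Log2 value minus the mean of the 8 arrays (vertical axis) for dmt101 and the 3 tested met5 probe sets in each pool, with seed source 49647-3self left of the dotted line and 49646-1self right of it. dmt101 and met5 sit higher in 49647-3self, by 0.29 to 0.36 on the log2 scale, and the seed sources overlap in all 4 probe sets, for dmt101 at 503.2 and 520.7.

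Within the duplicated segment, mbd109 was number 20 of the 51 tested genes in order from the tip of the short arm. It had the sixth largest difference of the 51, beside a segment median of 0.47, and genes of other chromosomes (786) had a median of -0.041. On values relative to mbd109, 27 of the other 50 segment genes had a smaller difference than mbd109 past the limma threshold, 3 a larger one, and 20 did not pass. The 3 with a larger rise were LOC542243, sbe1 (LOC542315, a starch branching enzyme gene) and pht1, by 2.86, 0.37 and 0.54 (limma adjusted p = 2.07e-05, 0.00107 and 0.0173).

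The tested genes on either side of mbd109 also had higher means in all 4 pairs. On the tip side, tub4 (LOC542417, a beta-tubulin gene) rose by 0.26 (SE 0.045) and tbp2 (LOC542241, encoding a TATA-binding protein) by 0.34 (SE 0.083), with limma adjusted p of 0.00856 and 0.0493. Both were below mbd109 in size, by -0.42 and -0.35 (limma adjusted p = 0.000250 and 0.00712). On the centromere side, Smh6 (LOC542683, of a family of single-myb histone genes) rose by 0.56 (SE 0.068, limma adjusted p = 0.00175), and tha9 (LOC541789) differed by 0.53 (SE 0.15, limma adjusted p = 0.0856). Against mbd109 these last 2 differed by -0.13 (interval -0.33 to 0.073) and -0.16 (interval -0.53 to 0.21), neither past the threshold.

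**Figure D5:**
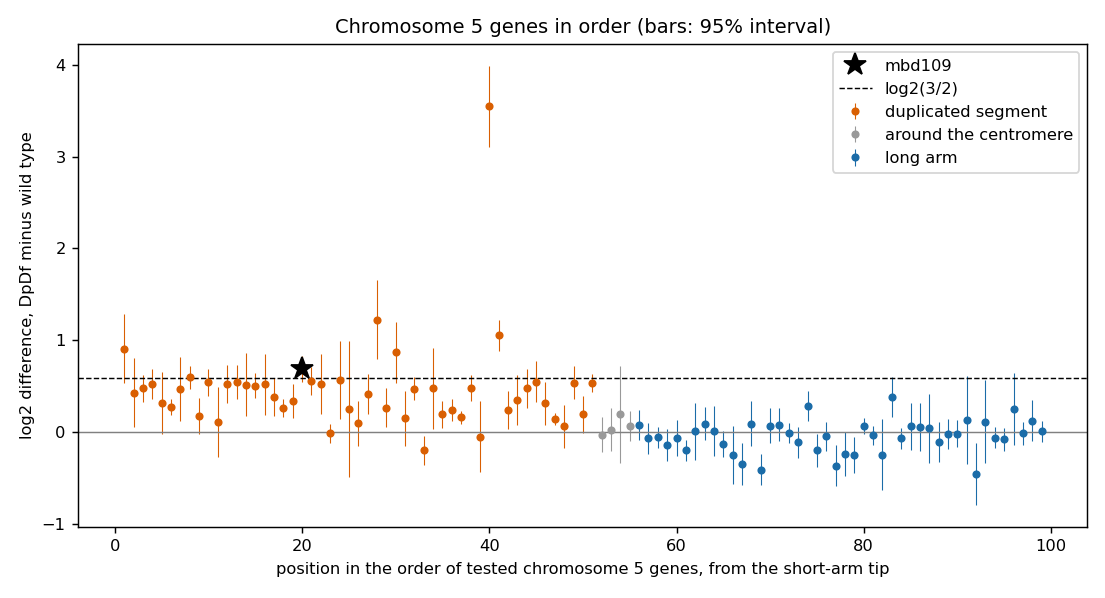
Log2 difference, DpDf minus wild type (vertical axis, bars are 95% intervals), of the tested chromosome 5 genes in order from the tip of the short arm (horizontal axis); the star is mbd109, at position 20 with 0.68. Segment genes, the first 51, have a median of 0.47.

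Among 909 other named genes, those whose log2 values followed mbd109 most closely over the 8 arrays were all segment genes. They were sbe1 (Pearson r = 0.99), sqs1 (LOC541614, squalene synthase, r = 0.98), SPT16 (LOC542546, a subunit of the histone chaperone FACT, r = 0.98), RPL19 (LOC542284, r = 0.97) and crd101 (LOC541970, r = 0.97). These correlations hold the difference between genotypes, which all 5 share with mbd109. After each genotype's mean was removed, r was 0.63, 0.33, 0.88, 0.023 and 0.19 in the same order, over the same 8 arrays.

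Other genes of the DNA methylation pathway were few on the array by the names searched. No probe set carried the name of a demethylating glycosylase (dng) or of a chr or ddm1 remodeler. The 4 genes found were rmr7, hon101, hon102 and sam2. Of the 4, 0 passed the limma threshold, against 4.87% of all probe sets, and 0 with the replicate block, against 10.2%. rmr7 (LOC100037782), which encodes the second largest subunit of plant-specific RNA polymerases of the RNA-directed methylation pathway, had intensities of 190.5, 171.0, 191.2 and 162.1 in DpDf, against 216.7, 187.0, 201.3 and 194.2 in wild type. It was lower in 4 of 4 pairs, as were 18.1% of all probe sets, and the genotypes overlapped. Its log2 difference was -0.16 (SE 0.081), with a limma adjusted p of 0.352 (0.155 with the replicate block). The linker histone genes hon101 and hon102 differed by -0.043 and -0.12 (limma adjusted p = 0.725 and 0.223). sam2 (LOC542733), taken into the list by its name, differed by 0.062 (limma adjusted p = 0.487).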

How the data were processed

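The authors deposited a linear intensity for each probe set on each array. MAS5 is named, per the submitters' processing notes, with neither version nor role; the sources used here do not give the scaling target. The log2 of each value was used without further normalization. The 113 array controls were left out, as were probe sets whose log2 values averaged below the 30th percentile (27.0 in linear terms). Names and gene order came from the platform annotation and a RefSeq table of assembly Zm-B73-REFERENCE-NAM-5.0, none of whose coordinates is given. Of 17621 probe sets, 1452 had 1 gene there and 1 had several. In the chromosome 5 order, each gene's brightest probe set stood for it. The segment was taken as the tested genes from the tip through RPL19.

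limma 3.58.1 in R 4.3.3 was fitted to 12335 probe sets (lmFit, eBayes with a mean-variance trend, genotype as the only term), with Benjamini-Hochberg adjustment over all of them, a threshold of 0.05 and 95% intervals; the fit relative to mbd109 had no trend. The script was tested on simulated data. The DpDf and wild-type pools of a number were drawn from the same planted batch of siblings, per the labels' growth protocol, and their deviations correlated at r = 0.36, 0.51, 0.56 and 0.33, so the numbers pair the samples. The number of arrays limits the precision. Alternatives are given in the closing section.

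The genes and lists were chosen with earlier results of these data known. Genes named are all mbd and dmt probe sets, the 5 named genes closest to mbd109 by correlation, its 2 neighbours on each side and the other methylation genes; the 3 segment genes above mbd109, met2 and met4 were named after their values were seen.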

Additional observations from a re-analysis of the deposited data

Results flagged for a closer look

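In 24 groups of 4 pools (12 probe sets in 2 genotypes), 1 had a pool far from the others: mbd105 had an intensity of 797.9 in DpDf replicate 4, against 911.7 to 929.1 in the other DpDf pools, and 773.0 to 898.1 in the wild-type pools. Chance alone sets about 1 in 20 such groups apart.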

How the results depend on the processing

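Under 17 alternative settings, 1 of them (leaving out both replicate 1 pools) chosen after seeing the data, mbd109 stayed higher in DpDf and past the limma threshold, with a difference from 0.64 to 0.75 and an adjusted p of at most 0.00484. Leaving out 1 pool at a time gave 0.64 to 0.71. mbd109 was the only mbd or dmt probe set called in each of the 17, and its difference minus the median of the others ran from 0.70 to 0.77. The other 11 probe sets gave 187 values, of which 0 passed the threshold (smallest adjusted p 0.126) and 18 had the other sign; mbd101, mbd105 and dmt101 kept their sign in all 17. All 11 remained below mbd109 in each setting (12 with no filter, which adds the dim met5 probe set). The count over all probe sets, 601, became 1253 with the replicate block and 337 with the 3' minus 5' covariate, and ran from 389 (without wild-type replicate 4) to 643 when 1 pool was left out; the cause was not tested. The pairing by replicate number changed no call among the 12 probe sets. No interaction with seed source was called for the 12 in any setting where it could be fitted. With 4 pools per genotype, differences as wide as -0.52 (dmt101) or 0.25 (mbd105) lie inside genotype-only intervals of probe sets that did not pass. With the replicate block, which uses the pairing, the same bounds were -0.40 (dmt101) and 0.24 (mbd105).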

Other observations

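The annotation holds 2 further genes with methyltransferase names but no dmt synonym, met2 on chromosome 10 and met4 (LOC542067) on chromosome 8, looked up after the annotation had been seen. met2 had intensities of 521.7, 479.2, 610.5 and 524.1 in the DpDf pools of replicates 1 to 4, against 717.1, 514.9, 732.5 and 568.1 in wild-type replicates 1 to 4. It was lower in DpDf in 4 of 4 pairs, with a log2 difference of -0.24 (SE 0.13) and a limma adjusted p of 0.388 (0.0842 with the replicate block). The pair difference of met2 was -0.46 in replicate 1, the pair with the widest gap in the 3' minus 5' measure. In replicates 2 to 4 it was -0.10, -0.26 and -0.12, and the part of RNA integrity was not tested. met4 was also lower in 4 of 4 pairs, at 70.3 ± 15.6 in DpDf and 79.8 ± 16.2 in wild type (SD, n = 4 each). Its log2 difference was -0.19 (SE 0.18), with a limma adjusted p of 0.664 (0.187 with the replicate block), and its widest pair difference was -0.36, in replicate 4. Neither passed the threshold, and 18.1% of all probe sets were lower in every pair.

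Both were higher in seed source 49647-3self than in 49646-1self, met2 by 0.30 (limma adjusted p = 0.134) and met4 by 0.50 (limma adjusted p = 0.105), the direction also measured for dmt101 and met5. These p-values take the 8 arrays as independent, which the paired pools are not, and are too small.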
